A study of Caenorhabditis elegans with 16 samples.

Results

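The regions described here are 500 bp windows of the Caenorhabditis elegans genome that carried histone H3 lysine 9 dimethylation (H3K9me2) in set-25 mutant embryos and, in a separate strain, lysine 9 trimethylation (H3K9me3) in met-2 mutant embryos. They were chosen by the measured values of these marks, from chromatin immunoprecipitation sequencing (ChIP-seq). A window was taken when the log2 ratio of the ChIP over the input made for it was above 1, a 2-fold enrichment, both for H3K9me2 in set-25 and for H3K9me3 in met-2. Counts were first scaled to a common column total (1000000, giving CPM), 0.1 CPM was added to both sides of the ratio, and only windows where none of the 4 inputs had fewer than 20 counts were used. This gave 1005 windows out of 191140, or 0.526% of the windows measured.

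The study used early embryos, before the bean stage, from worms of 2 mutant strains labelled met-2(n4256) III and set-25(n5021) III, grown at 20 °C. The labels list 16 samples in 8 groups, with ChIP and input libraries for both marks in both strains and 2 biological replicates of each. The table analysed here has 1 column of raw counts per group and does not show whether a column is 1 replicate or both. No spread between replicates could be estimated, so no difference below was tested. The intervals below are those of counting alone, of reads for the ratios of runs and of windows for shares. Those over windows take neighbouring windows as independent and so are too narrow. The labels give no wild-type group, so none of the values shows what a mutation removed or left in place. Chromatin came from whole embryos, in which a mark on every cell at a low level and a mark on a few cells at a high level cannot be told apart. Because each mark was measured in its own strain, a window with both does not show both marks in one embryo or on one nucleosome.

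Methylation of H3K9 marks silent chromatin. In the worm embryo, MET-2, the homologue of mammalian SETDB1, adds the first and second methyl groups to H3K9, and SET-25 adds the methyl group that gives H3K9me3. The marks are known to cover repetitive DNA and silent genes, which are more frequent on the arms of worm chromosomes than in their middles. A window of the kind described here thus lies where dimethylation was measured without SET-25 and trimethylation without MET-2.

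The strain labels were checked at 2 runs of windows on chromosome III that were nearly empty in some inputs, taken as the sites of the deletions. The runs were searched for by the labels. Both met-2 inputs at the first, and the set-25 H3K9me2 input at the second, had to be under 10% of their median. The H3K9me2 input of the other strain had to be above 40% of its median. The counts of these inputs there were thus bounded by the search. At bases 8376501 to 8377500 the met-2 inputs held 0 counts, against 1224.8 expected from the flanks for the H3K9me3 input and 438.6 for the H3K9me2 input, while set-25 had 513 of 571.9 in its H3K9me2 input. At bases 13287501 to 13289000 set-25 had 4 of 599.55 counts in the H3K9me2 input and 6 of 340.95 in the H3K9me2 ChIP, while met-2 had 4332 against 2046 in its H3K9me3 input. The ChIP libraries were not used in the search. At the first run the met-2 H3K9me3 ChIP held 6 of 449.4 counts and the set-25 H3K9me2 ChIP 74 against 60.9. At the second the met-2 H3K9me3 ChIP held 1439 against 911.55. Both ChIP libraries that chose the windows thus match their strain labels at both sites. Of their inputs, only the met-2 H3K9me3 input at the second run was free of the search. The H3K9me3 pair labelled set-25 does not match its label. Its input held 2 of 607.9 counts at the first run and 2 of 806.25 at the second. Its ChIP held 15 of 139.5 at the first and 1431 against 1029.9 at the second. This ChIP and its input thus differ at the second run, so the ratios of the pair below may not compare like chromatin. The cause was not tested. The pair is called the library labelled set-25 below, and no direction is drawn from it about the set-25 strain.

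The ChIP libraries behind the choice held 19777605 counts for H3K9me2 in set-25 and 58645635 for H3K9me3 in met-2, and the other libraries between 19732750 and 114221896. In the 1005 windows the median count was 310 for set-25 H3K9me2 and 2077 for met-2 H3K9me3, against medians of 41 and 204 over all windows kept. No chosen window had fewer than 29 counts in the first or 40 in the second. The met-2 H3K9me2 ChIP had a median of 157 counts in these windows, with 5 windows under 20, and the H3K9me3 ChIP labelled set-25 had a median of 198, with 54 windows under 20 and 10 at 0.

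Both marks spanned a wide range over the chosen windows. For H3K9me2 in set-25 the log2 ratio ran from 1.0006 to 4.88 with a median of 1.87 and quartiles of 1.39 and 2.70. For H3K9me3 in met-2 it ran from 1.0009 to 4.33 with a median of 1.95 and quartiles of 1.41 and 2.80. These values belong to the choice of the windows and are a description, as is 1 further count: 225 windows, 22.4%, were above 2 for both marks and 38 were above 3 for both. The median of all windows kept was -1.33 for set-25 H3K9me2 and -0.35 for met-2 H3K9me3, so that the same threshold lay farther above the typical window for H3K9me2 than for H3K9me3.

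The heights of the 2 marks are given here as a description, since both were used in the choice and cut off at the threshold. Over the 1005 windows Pearson's r between them was 0.07 and Spearman's rho 0.07, where neighbouring windows share a domain and all points share the same pair of libraries. The median difference, H3K9me2 minus H3K9me3, was -0.04 on the log2 scale. In 588 windows, 58.5%, the marks were within 1 of each other, in 215 H3K9me2 was higher by at least 1, and in 202 H3K9me3 was. This balance holds with each mark's own input: the medians were 1.17 for H3K9me2 and 3.46 for H3K9me3 with the input of the other mark, and 1.34 and 2.26 with all 4 inputs summed.

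The edge of the choice was densely filled. Taking the smaller of the 2 log2 ratios, 60 chosen windows lay within 0.05 above the threshold and 77 other windows lay within 0.05 below it, with the lowest chosen window at 1.0006 and the highest other one at 0.9987. The median of the smaller ratio was 1.498 over the chosen windows.

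How many windows carry both marks has to be read against how common each mark is. Of all windows kept, 10.3% were above the threshold for H3K9me2 in set-25, 19606 windows, and 4.1% for H3K9me3 in met-2, 7830 windows. Windows with both were 5.13% of the set-25 H3K9me2 windows, beside the 4.10% of all windows that had met-2 H3K9me3. They were 12.8% of the met-2 H3K9me3 windows, beside the 10.3% of all windows that had set-25 H3K9me2. Over the whole genome the shares are thus near the background, and no result about overlap is read from them. With all 4 inputs summed into 1 the share among set-25 H3K9me2 windows was 3.88% against 4.15% of all windows, without chromosome V it was 3.72% against 3.66%, and without windows above 2 times the median in any input it was 3.17% against 3.22%.

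**Figure D1:**
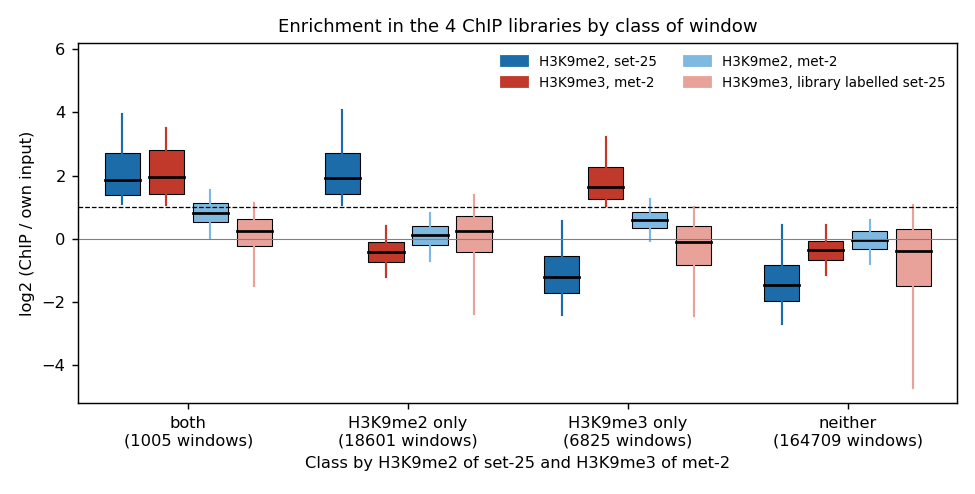
Log2 ratio of each ChIP over its matched input (vertical axis) in the 4 ChIP libraries, for windows with both marks, with set-25 H3K9me2 only, with met-2 H3K9me3 only and with neither. Boxes give the quartiles, the black line the median, the whiskers the 5th and 95th percentiles, and the dashed line the threshold. The dark boxes are the libraries that chose the classes; of the pale boxes, met-2 H3K9me2 was highest in windows with both, with a median of 0.81.

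Position along the chromosomes was not used in the choice. Of the 892 chosen windows on the 5 autosomes, 761 lay on the arms (25% of the length counted from either end), a share of 85.3%. The same share was 49.5% of all autosomal windows kept, 93.9% of windows with set-25 H3K9me2 only and 20.5% of windows with met-2 H3K9me3 only. The chosen windows were thus placed much more like the H3K9me2 windows than like the H3K9me3 windows, which lay mainly in the middles. Their place depends on where each mark lay, since a chosen window needs both. On the arms 22.1% of windows had H3K9me2 and 2.56% H3K9me3, and in the middles 1.51% and 6.23%. Whether the chosen windows lay on arms more often than these shares alone give was not tested. Their place on arms is therefore not read as a trait of their own. In the outermost 5% at either end, next to the chromosome ends, lay 18.6% of the chosen autosomal windows, 166 in all, against 9.92% of all autosomal windows kept, 12.8% of the H3K9me2-only and 4.51% of the H3K9me3-only windows. The measured part of X, which ends at base 16493500 in the table, held 113 windows, 11.2%, while it held 16.9% of all windows kept.

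Chromosome V held the most. It had 439 of the 1005 windows, 43.7%, while 20.9% of all windows kept were on V. Its right arm alone had 284, or 2.85% of the windows there, and its left arm 123, or 1.26%. The left arm of II followed with 94 windows, or 1.299%, and the left arm of III with 47, or 0.710%. In the middles the share was lowest on III, with 10 windows or 0.0743%, and highest on I, with 39 windows or 0.265%. X had 0.350%. The right arm of V was thus above every other arm, and no middle reached 0.5% of its windows.

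**Figure D2:**
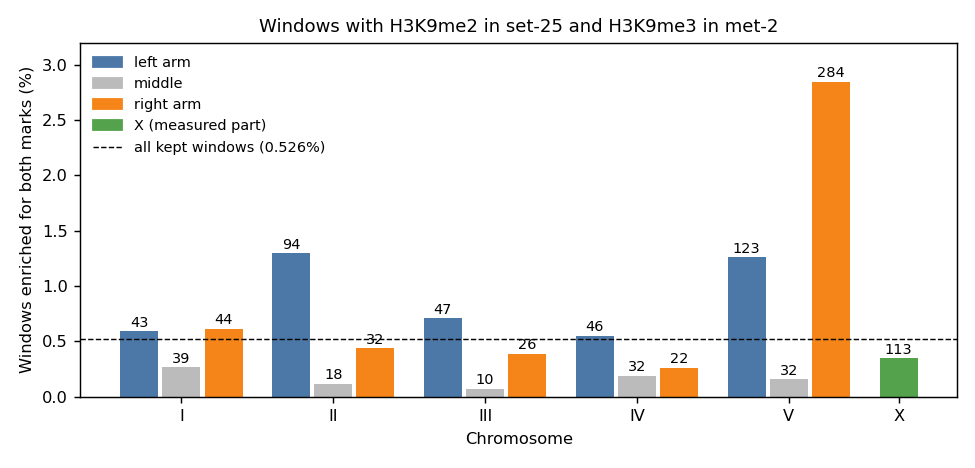
Share of the measured windows that were enriched for H3K9me2 in set-25 and H3K9me3 in met-2 (vertical axis, %) for the arms and middle of each autosome and for the measured part of X. The number of windows stands above each bar, and the dashed line is the share over the genome, 0.526%; the right arm of V reaches 2.85%.

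At the scale of 1 Mb, 75 of 102 bins held at least 1 chosen window and 16 held 20 or more. A single bin, bases 17000001 to 18000000 on V, held 142 of them, 14.1% of the total. That bin had 859 windows with set-25 H3K9me2 and 189 with met-2 H3K9me3 among 1879 kept. The next were bases 1000001 to 2000000 on II and 1 to 1000000 on V, each with 43 windows, and bases 18000001 to 19000000 on V with 37. The 6 richest bins, which also include 2000001 to 3000000 on II and 16000001 to 17000000 on V with 34 each, together held 33.1% of all chosen windows.

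The share of each mark's windows that carried the other mark changed with position. On the arms, 37.7% of the met-2 H3K9me3 windows also had set-25 H3K9me2, beside 22.1% of all arm windows. The highest value was on the left arm of III, where 70.1% of the 67 H3K9me3 windows had H3K9me2 and where 47.3% of all windows did. On V it was 58.0% on the left arm and 54.8% on the right, with 11.3% and 31.2% of all windows there having H3K9me2. In the autosome middles only 2.62% of the H3K9me3 windows had H3K9me2, beside 1.51% of all middle windows. Read from the other side, 4.38% of the H3K9me2 windows on arms had H3K9me3, against 2.56% of all arm windows, and in the middles 10.8% did, against 6.23%. On X the shares were 11.04% against 2.53%. Within the arms, the middles and X, the overlap was thus above its background in each, although over the whole genome it was near it. Set-25 H3K9me2 windows lay mostly on arms and met-2 H3K9me3 windows mostly in middles.

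These regional differences also depended on the input and on V. With all inputs summed the share among H3K9me2 windows was 3.57% against 2.78% on arms, 6.56% against 6.007% in the middles and 5.90% against 2.86% on X, and without chromosome V it was 2.69% against 2.18% on the arms. With the input of the other mark it fell below its background on arms, to 8.12% against 11.6%, and in the middles, to 8.08% against 9.73%, while on X it was 11.005% against 7.98%.

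The share with 1 mark was also read by the level of the other, as a description of the values used in the choice. Among windows with a met-2 H3K9me3 log2 ratio above 3, 198 of 768, 25.8% (95% exact interval 22.7 to 29.03), had set-25 H3K9me2, while between 1 and 1.5 the share was 9.26% (8.28 to 10.3). On the arms it was 66.3% (58.7 to 73.3) above 3, out of 172 windows, and 29.4% (26.4 to 32.6) between 1 and 1.5. On X it was 48.5% (36.2 to 61.0), 33 of 68, above 3 and 6.22% (3.98 to 9.18) between 1 and 1.5. In the middles it was 9.66% (7.28 to 12.5), 51 of 528, and 1.06% (0.659 to 1.62). The difference between these bins was not tested. In the other direction the share with met-2 H3K9me3 was 5.38% at a set-25 H3K9me2 ratio of 1 to 1.5, 5.39% at 1.5 to 2, 4.47% at 2 to 3 and 5.36% above 3. These intervals count windows as independent, which neighbouring windows are not, and so are too narrow.

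**Figure D3:**
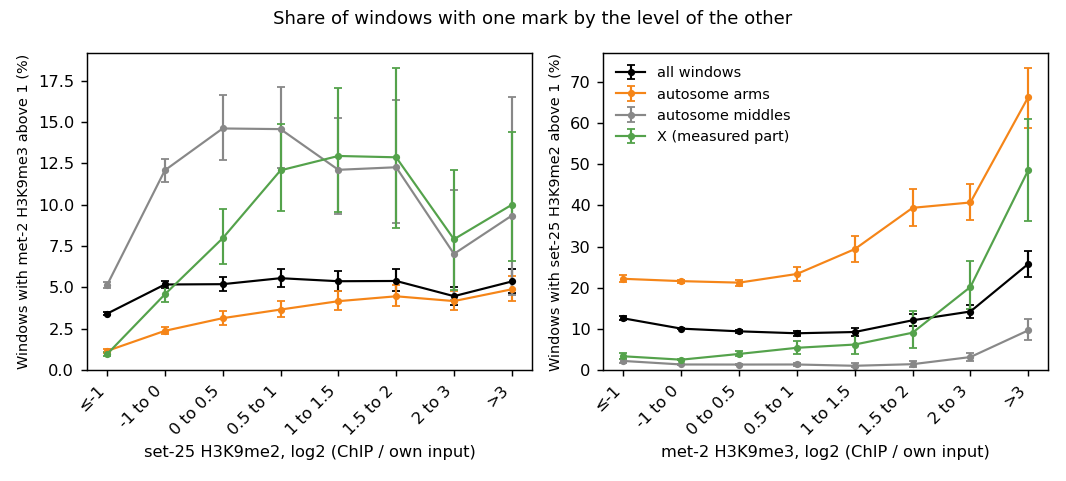
Left, the share of windows with met-2 H3K9me3 above the threshold (vertical axis, %) by the log2 ratio of set-25 H3K9me2 (horizontal axis); right, the share with set-25 H3K9me2 by the log2 ratio of met-2 H3K9me3. Lines are all windows, autosome arms, autosome middles and the measured part of X, with exact 95% intervals over windows. On the right the arms reach 66.3% in the highest bin, while on the left the line for all windows is at 5.36% there.

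The chosen windows lay in runs. Joining directly adjacent windows gave 327 runs, and 837 windows, 83.3%, were in runs of at least 2. The 168 windows that stood alone were 16.7%, beside 13.8% of all set-25 H3K9me2 windows and 9.59% of all met-2 H3K9me3 windows. Lying in runs was thus not particular to the chosen windows. The 56 runs of at least 5 windows held 570 windows, 56.7%, and the 21 runs of at least 10 windows, or 5 kb, held 344, 34.2%. The longest was 30 windows, or 15 kb. Allowing gaps of up to 2 kb gave 244 clusters, of which 29 had at least 10 chosen windows and together held 485, 48.3%.

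A domain is here a run of at least 10 adjacent enriched windows of 1 mark. Of the chosen windows, 479 lay in set-25 H3K9me2 domains, 47.7%, against 27.3% of all set-25 H3K9me2 windows, and 525 lay in met-2 H3K9me3 domains, 52.2%, against 45.5% of all met-2 H3K9me3 windows. In 361 the domains of both marks overlapped, and 362 lay in neither kind of domain. Of 332 set-25 H3K9me2 domains 49, or 14.8%, held a chosen window, and 14 consisted of chosen windows throughout. Of 214 met-2 H3K9me3 domains 58, or 27.1%, held one, and 8 consisted of them throughout. Most domains of either mark thus had no window with the other.

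At the 112 edges of the 56 runs of at least 5 windows, the next window outside still had met-2 H3K9me3 but no longer set-25 H3K9me2 in 47 cases, 42.0%. It still had H3K9me2 but no longer H3K9me3 in 31, 27.7%, and had lost both in 10. In 24, 21.4%, it was not among the windows kept. The H3K9me3 run was the longer one in 30 of these 56 runs, the H3K9me2 run in 20, and in 6 they were equal. In the first window outside, 53.4% of those kept had H3K9me3 and 35.2% H3K9me2, at 5 kb from the edge 27.7% and 34.7%, and at 10 kb 14.4% and 15.4%. H3K9me2 was thus the mark more often lost in the first window outside. A kept first window cannot have both marks, since the run would otherwise go on. In the second window outside, 48.5% had H3K9me2 and 44.6% H3K9me3, and at 2 kb 44.2% and 38.5%. Both shares were lower at 5 kb than in the second window. Of these runs 46 lay on arms, where 2.56% of all windows had H3K9me3 and 22.1% H3K9me2, so that at 10 kb H3K9me3 was above the share of the arms and H3K9me2 below it.

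By run length, again as a description of values used in the choice, the median set-25 H3K9me2 ratio was 1.49 in single windows, 1.63 in runs of 2 to 4, 1.83 in runs of 5 to 9 and 2.46 in runs of 10 or more. For met-2 H3K9me3 the same medians were 1.39, 1.63, 1.95 and 2.49. The H3K9me3 input of met-2 rose over the same classes, from 1.02 times its median window in single windows to 2.76 times in runs of 10 or more, and its part in these medians was not tested.

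The longest run, of 30 windows, covered bases 17052501 to 17067500 on the right arm of V. Its counts summed to 15395 for the set-25 H3K9me2 ChIP and 6658 for its input, a log2 ratio of 2.40 (95% exact interval 2.35 to 2.44), with single windows between 1.22 and 3.28. For met-2 H3K9me3 the sums were 37438 and 22926, a log2 ratio of 1.67 (1.65 to 1.69), with windows between 1.15 and 2.27. H3K9me2 was thus the higher mark over this run. Both runs stopped at the right end, 17067500, where the next window had 0.9992 for H3K9me2, just under the threshold, and 0.91 for H3K9me3. In the window after that H3K9me2 was at 1.47 again, while H3K9me3 was at 0.13. At the left end of the run H3K9me2 went on to 17051501.

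The next 2 runs, of 24 windows or 12 kb each, lay farther out on the same arm and were led by H3K9me2. At bases 18443501 to 18455500 the log2 ratio was 4.25 for set-25 H3K9me2, from 36496 ChIP and 4365 input counts, and 2.09 for met-2 H3K9me3, from 68903 and 31575. At bases 19270001 to 19282000 it was 4.09 for H3K9me2, from 29128 and 3898 counts, and 2.11 for H3K9me3, from 97174 and 43818. In both, the H3K9me3 run ended with the overlap while the H3K9me2 run was longer, 16 kb and 14.5 kb. The H3K9me3 input of met-2 was at 2.70 and 3.74 times its median window there, and the H3K9me2 input of set-25 at 0.755 and 0.674 times its own.

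Other named runs led by H3K9me2 were on X and III. Bases 1766001 to 1775000 on X, 9 kb, had a log2 ratio of 4.13 for set-25 H3K9me2, from 34496 ChIP and 4469 input counts, and of 2.21 for met-2 H3K9me3, from 45876 and 19338. Bases 2667001 to 2675000 on the left arm of III, 8 kb and the longest run of that chromosome, had 3.695 for H3K9me2 and 1.79 for H3K9me3. In each the overlap was the part with H3K9me3 of a longer H3K9me2 run, 18.5 kb on X and 17 kb on III.

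The named runs in which H3K9me3 was higher by at least 1 lay in a chromosome middle or on X, while unnamed runs of that kind also lay on arms. Bases 11974501 to 11986000 in the middle of IV, 11.5 kb, had a log2 ratio of 3.17 for met-2 H3K9me3, from 135531 ChIP and 29426 input counts, and 1.49 for set-25 H3K9me2, from 8305 and 6720. Here the H3K9me3 run was the longer one, 19.5 kb, from 11973501 to 11993000. Bases 9192001 to 9202000 on X, 10 kb, had 3.18 for H3K9me3 and 1.79 for H3K9me2. Both runs covered the same 10 kb, but each end was set by a window left out by the input floor. The next kept window had 2.40 for H3K9me3 and 1.72 for H3K9me2 on the right, and 0.53 and 1.13 on the left. The longest run of II, 4.5 kb at bases 8288001 to 8292500 in its middle, had 2.60 for H3K9me3 and 1.503 for H3K9me2 inside an H3K9me3 run of 11 kb. Among all 131 chosen windows of the autosome middles the same order held in the medians, 2.80 for met-2 H3K9me3 and 1.54 for set-25 H3K9me2, while the 761 on arms had 1.80 and 1.98.

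In the remaining named runs both marks were high. Bases 17133501 to 17144500 on the right arm of V, 11 kb, had a log2 ratio of 3.34 for set-25 H3K9me2, from 20379 ChIP and 4572 input counts, and of 3.58 for met-2 H3K9me3, from 213270 and 34747. All 5 windows with the highest smaller ratio of the genome lay inside it. The first of them, bases 17140501 to 17141000, had 1477 set-25 H3K9me2 counts over 236 of input, a ratio of 3.81, and 9918 met-2 H3K9me3 counts over 1506 of input, a ratio of 3.67. In the other 4, starting at 17137501, 17136001, 17137001 and 17139501, the H3K9me2 ratio was 3.56 to 3.63 and the H3K9me3 ratio 3.603 to 3.92. On the left arm of V, bases 5183501 to 5194500, 11 kb, had 2.57 for H3K9me2 and 3.16 for H3K9me3, and bases 2783001 to 2793000, 10 kb, had 2.90 and 3.19. The longest run of I, 6 kb at bases 2054501 to 2060500 on its left arm, had 2.35 and 3.0005.

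**Figure D4:**
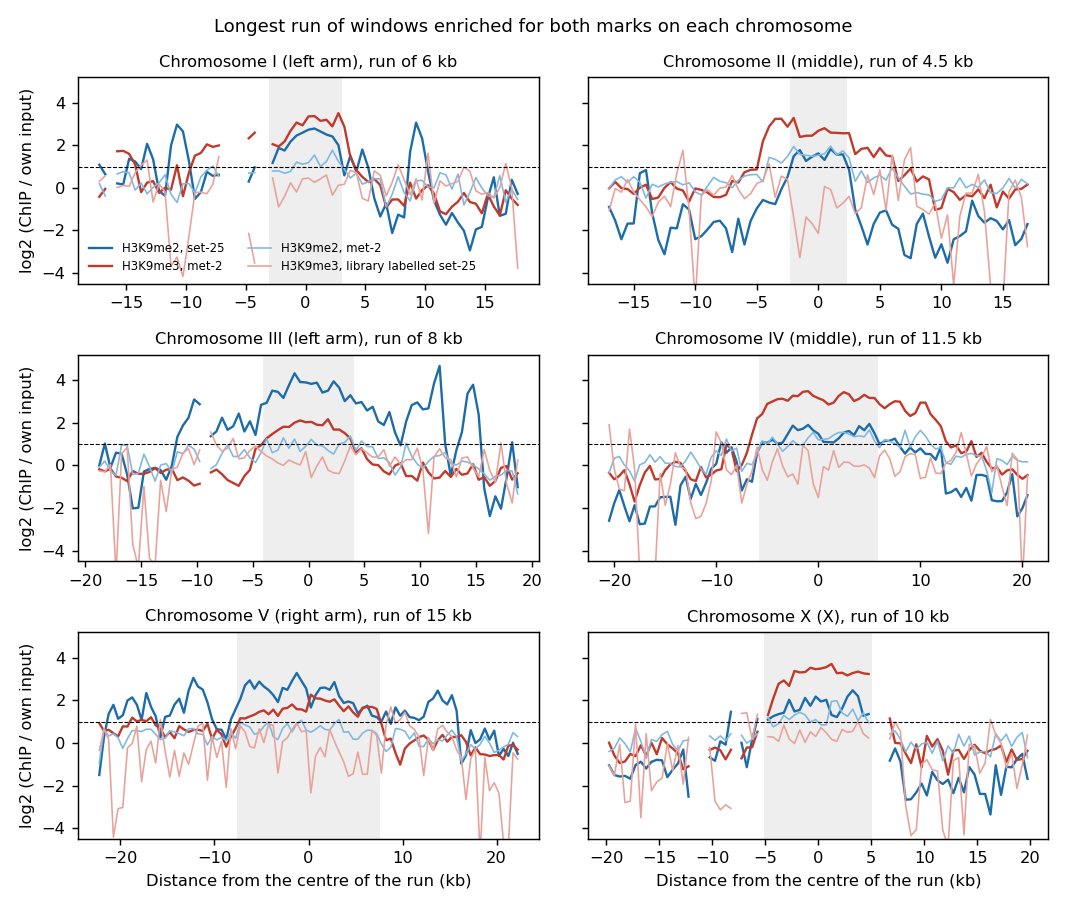
Log2 ratio of each ChIP over its matched input (vertical axis) along the longest run on each chromosome, against the distance from the centre of the run in kb; the run is shaded, the dashed line is the threshold, gaps are windows left out by the input floor, and values below the axis are not drawn. The run of III is the H3K9me3-marked part of a wider H3K9me2 run, that of IV the H3K9me2-marked part of a wider H3K9me3 run. Met-2 H3K9me2, from summed counts, is between 0.64 in the run of V and 1.64 in that of II, where it is above the 1.503 of set-25 H3K9me2.

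The H3K9me2 library of met-2 took no part in the choice. Its log2 ratio over the 1005 windows had a median of 0.81, quartiles of 0.52 and 1.12, and a range from -1.26 to 2.10. It was above 0 in 962 windows, 95.7%, above 1 in 348, 34.6% (95% exact interval 31.7 to 37.7), and above 2 in 3. The interval takes neighbouring windows as independent and so is too narrow. Of all windows kept, 1.34% were above 1, and the median was -0.01. Windows with met-2 H3K9me3 only had a median of 0.59 and 15.5% above 1, and windows with set-25 H3K9me2 only had 0.12 and 1.90%. By this ratio windows with both were highest of these classes, and those with the H3K9me3 of the same strain followed.

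In 952 of the 1005 windows the H3K9me2 ratio was higher in set-25 than in met-2, in 561 by at least 1, with a median difference of 1.15. The set-25 values are those the windows were chosen by, so this difference is a description. Within the chosen windows met-2 H3K9me2 went with met-2 H3K9me3 (r = 0.56, rho = 0.57 over 1005 windows) and hardly with set-25 H3K9me2 (r = 0.08, rho = 0.10). Each point is a window, windows of a run are neighbours, and the libraries of the first pair come from the same strain.

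By height of met-2 H3K9me3, 11.4% of the chosen windows had met-2 H3K9me2 above 1 at a ratio of 1 to 1.5, 19.9% at 1.5 to 2, 43.3% at 2 to 3 and 73.2% above 3. In windows with met-2 H3K9me3 only, the same shares were 4.36%, 8.54%, 24.6% and 63.7%. The share thus rose with H3K9me3 in both classes, and was higher in the chosen windows in each step. The ChIP and the input gave this in different ways: over the chosen windows the met-2 H3K9me2 ChIP was only 0.20 above its median window on the log2 scale and its input 0.70 below, while in H3K9me3-only windows the ChIP was 0.53 above and the input 0.08 below. Over all positions together, in each step of H3K9me3 the median ChIP level of met-2 H3K9me2 was lower in the chosen windows than in the H3K9me3-only ones. So was the input. Above 3 the order was the reverse on arms, with ChIP levels of 0.46 against 0.13, and on X, with 0.16 against -0.17. There the input was also slightly higher in the chosen windows. In the other steps on arms, in the middles and on X both were lower.

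The share differed along the genome. Met-2 H3K9me2 was above 1 in 229 of 761 chosen windows on arms, 30.1%, in 71 of 131 in the middles, 54.2%, and in 48 of 113 on X, 42.5%. Of all windows kept, 1.40% on arms, 1.53% in the middles and 0.743% on X were above 1. The median met-2 H3K9me3 ratio of the chosen windows also differed, 1.80, 2.80 and 2.38 in the same order. At a ratio of 2 to 3 the shares were 38.8%, 64.3% and 43.9%, and above 3 they were 77.2%, 72.5% and 60.6%. The part of H3K9me3 height in these differences was not tested. The share was highest in the middle of IV, at 78.1% of 32, and low on the left arm of II, at 10.6% of 94. Of all windows kept there, 1.26% and 1.78% were above 1. By run length the share in the chosen windows rose from 20.2% of single windows to 47.4% in runs of 10 or more.

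Over the 56 runs of at least 5 windows, summed counts gave a met-2 H3K9me2 log2 ratio between 0.38 and 1.64 with a median of 0.85. It was above 1 in 16 runs and above 0 in all 56, with the lower end of the counting interval above 0 in each. Among the named runs the highest was in the middle of II, 1.64 (1.54 to 1.73) from 3040 ChIP and 1250 input counts, followed by bases 17133501 to 17144500 on V with 1.35 (1.27 to 1.42) and bases 2783001 to 2793000 on V with 1.29 (1.21 to 1.37). The lowest was the longest run, at bases 17052501 to 17067500 on V, with 0.64 (0.59 to 0.70) from 5808 and 4766 counts. In the 5 single windows with the highest smaller ratio, it was between 1.03 and 1.65, from 86 to 345 ChIP counts.

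The enrichment of met-2 H3K9me2 changed with the input. Over the H3K9me2 input of set-25 the median over the 1005 windows was 0.47 and 8.66% were above 1, beside 0.284% of all windows. Over the H3K9me3 input of met-2 the median was -0.39 and 6.47% were above 1, beside 9.30% of all windows. Over the 4 inputs summed it was -0.11, with 3.68% above 1 beside 0.267%. The median of all windows kept was 0.37 over the H3K9me3 input and 0.16 over the summed one, so that with either of these inputs the chosen windows had lower met-2 H3K9me2 than the typical window. The part of the input in this enrichment was not tested.

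The H3K9me3 library labelled set-25, which goes against its label at the deletion sites, had a median of 0.23 over the 1005 windows, with quartiles of -0.22 and 0.64 and a range from -5.90 to 3.11. It was above 0 in 639 windows, 63.6%, and above 1 in 83, 8.26% (6.63 to 10.1), while 6.81% of all windows kept were above 1. The share in the chosen windows was near this background, and its interval is too narrow for the same reason as above. In set-25 H3K9me2-only windows the median was also 0.23 and 14.4% were above 1, and in met-2 H3K9me3-only windows it was -0.10 and 5.14%. At each height of set-25 H3K9me2 the share was lower in the chosen windows, 7.32% against 13.0% at a ratio of 1 to 1.5 and 9.55% against 15.9% above 3. The median ChIP level and input were both higher in the chosen windows at each height. At 1 to 1.5 the ChIP was 1.10 against 0.755 above its median window on the log2 scale, and above 3 it was 2.04 against 0.944. The input was at 1.63 against 1.16 times its median window, and at 2.46 against 1.18 times. The part of the input in the lower share was not tested. Of the 56 runs of at least 5 windows none was above 1 in this library, the highest being at 0.75, and 43 were above 0.

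Met-2 H3K9me3 was above the H3K9me3 of the library labelled set-25 in 982 of the 1005 windows, in 823 by at least 1, with a median difference of 1.95, of which the first value was used in the choice. Of the chosen windows 26 were above 1 in all 4 ChIP libraries, and 600 in neither of the 2 libraries that took no part in the choice. Taken singly, 34.6% were above 1 for met-2 H3K9me2 and 8.26% for the library labelled set-25, beside 1.34% and 6.81% of all windows kept. The shares of all windows kept with both or neither of these 2 libraries above 1 were not computed. No result is thus read from the 2 counts.

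The inputs were themselves unusual in the chosen windows. The H3K9me3 inputs were high, with medians of 2.08 times the median window for met-2 and 1.89 times for the one labelled set-25, and 519 windows, 51.6%, were above 2 times in the first and 460, 45.8%, in the second. Over all windows kept, 12.2% and 8.30% were. The H3K9me2 inputs were low, with medians of 0.817 times for set-25 and 0.616 times for met-2, and 388 windows, 38.6%, were under 0.5 times in the latter against 7.35% of all. In 554 windows, 55.1%, the H3K9me2 input of set-25 was below its median while the H3K9me3 input of met-2 was above its own, against 25.3% of all windows kept. Both H3K9me3 inputs were thus high in these windows and both H3K9me2 inputs low.

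**Figure D5:**
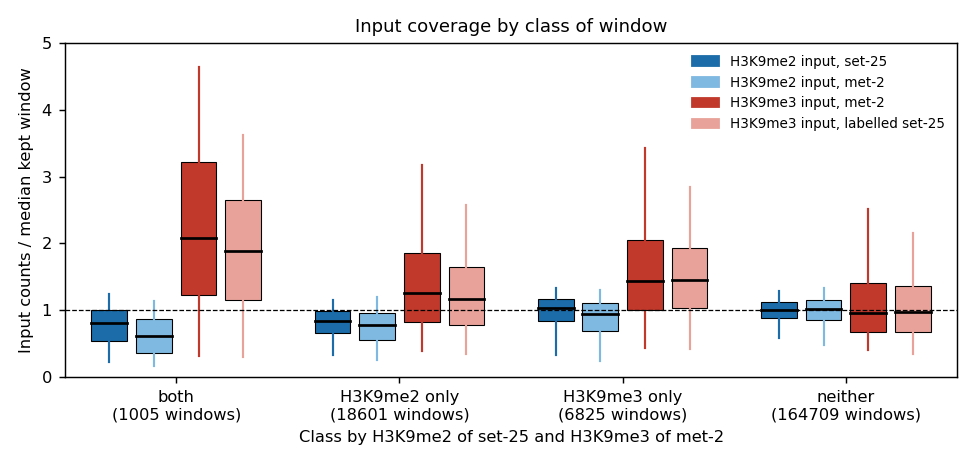
Input counts relative to the median window kept (vertical axis) for the 4 inputs, in windows with both marks, with set-25 H3K9me2 only, with met-2 H3K9me3 only and with neither. Boxes give the quartiles, the black line the median and the whiskers the 5th and 95th percentiles. In windows with both marks the H3K9me3 inputs have medians of 2.08 and 1.89 and the H3K9me2 inputs of 0.817 and 0.616.

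The choice was therefore recomputed with other inputs. With the same mark's input carrying the other strain label, which for met-2 H3K9me3 is the input that goes against its label, 933 of the 1005 windows, 92.8%, passed again. With the other mark's input from the same strain, 500, 49.8%, did, as the set-25 H3K9me2 ratio had a median of 1.17 and was above 1 in 564, while met-2 H3K9me3 had a median of 3.46 and was above 1 in 940. With the 4 inputs summed, 592 windows, 58.9%, passed again. The set-25 H3K9me2 call was thus the one more often lost with the H3K9me3 input or the summed input. The part of input coverage, and of repeats that share reads, in these enrichments was not tested.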

How the data were processed

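Per the labels, ChIP and input libraries came from formalin-fixed, sonicated chromatin. The deposited table gives raw counts per 500 bp window in 8 columns, the unit being read from the values, and each column was matched to its group by name, with 0 columns unmatched. Aligner, counter, treatment of duplicates and repeats, and genome build were not given in the sources used here. Positions are those of the deposited windows, counted from 1, and no gene or sequence is given, since the gene table at hand is of another build. Of 198087 complete lines, 191140 windows, 96.5%, had no input under 20 counts and were kept. Ratios were computed on CPM by column total plus 0.1, and runs from summed counts with 95% exact (Clopper-Pearson) binomial intervals, which cover counting error only, since amplified reads are not independent molecules. The expectation at the deletion sites came from 10 windows on either side.

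The windows, thresholds and lists were chosen with earlier results of these data known. Named regions were the 10 longest runs, the longest run on each chromosome and the 5 windows with the highest smaller ratio. With 1 column per group no test was made. Python 3.11.15, NumPy 2.4.6, pandas 2.3.3, SciPy 1.17.1 and matplotlib 3.10.9 were used, and the scripts were tested on simulated data.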

Additional observations from a re-analysis of the deposited data

How the results depend on the processing

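The values below were recomputed under 19 other settings, with all inputs kept unless named: the number of windows with both marks (1005), their share of the set-25 H3K9me2 windows (5.13%), their share of the met-2 H3K9me3 windows (12.8%), the share of autosomal ones on arms (85.3%), the share in runs of at least 2 (83.3%), the share with met-2 H3K9me2 (34.6%) and the share with H3K9me3 in the library labelled set-25 (8.26%). Of 127 values, 52 moved by less than the counting interval, or by less than 1.5 times for the number, and 75 by more; the cause was not tested. All are given in this order, leaving out those that did not move. For the last 2 shares, the same share of all windows kept is given below where it was computed. Elsewhere no result is read from their values.

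A threshold of 0.5 gave 2418 windows, 8.89%, 15.8%, 71.5% in runs, 57.9% and 31.8%. A threshold of 1.5 gave 501, 3.64%, 10.8%, 86.6% in runs, 8.78% and 0.599%. A threshold of 2 gave 225, 2.45%, 8.04%, 89.1% on arms, 86.7% in runs, 0.444% and 0%, where the threshold also applied to the last 2 libraries. Of all windows kept, 11.8% had met-2 H3K9me2 at a threshold of 0.5 and 0.0037% at a threshold of 2. At a threshold of 2, 0.266% of them had H3K9me3 in the library labelled set-25. Centring each library on its median gave 3351, 7.37%, 27.7%, 73.7% on arms, 76.7% in runs, 23.0% and 18.1%. With this centring 1.37% of all windows kept had met-2 H3K9me2. Column totals without the most covered 1% of windows moved the share of met-2 H3K9me3 windows to 13.8%. A pseudocount of 1 CPM gave 4.58%, 12.1%, 85.7% in runs, 18.8% and 4.67%, while 0.01 CPM moved no value.

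The input of the other mark gave 1568 windows, 8.26%, 8.03%, 93.0% on arms, 53.9% in runs, 2.81% with met-2 H3K9me2 and 71.4% with H3K9me3 in the library labelled set-25. The input carrying the other strain label, which for met-2 H3K9me3 is the one that goes against its label, gave 5.95%, 16.2%, 80.0% in runs (79.952), 7.29% and 5.47%. The 4 inputs summed gave 3.88%, 8.64%, 88.3% on arms, 76.8% in runs, 5.26% and 15.0% (15.036). Leaving out windows above 2 times the median in any input gave 479, 3.17%, 8.90%, 55.9% in runs, 18.4% and 13.2%. Among these inputs the share with met-2 H3K9me2 thus lay between 2.81% and 34.6%, and that of the library labelled set-25 between 5.47% and 71.4%. Of all windows kept, in the order of these settings, 9.30%, 0.284%, 0.267% and 0.538% had met-2 H3K9me2. The 2.81% was thus below its background. For the library labelled set-25 the share of all windows was not computed under these settings, so no result is read from its values.

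A floor of 50 input counts gave 4.54%, 11.5% and 6.02% for the library labelled set-25, no floor gave 5.66%, 13.7% and 10.4%, and a floor of 10 moved no value. Windows of 1 kb gave 535 windows, 78.3% in runs and 6.17% for the library labelled set-25, and windows of 2 kb gave 283, 72.4% in runs, 28.3% and 4.59%. With each autosome cut into arms and a middle of equal length, the arms held 95.3%. Of the settings chosen after seeing the data, a floor on the 2 inputs of the choice alone moved no value, and leaving out chromosome V gave 566, 3.72%, 10.2%, 78.1% on arms and 79.7% in runs.

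No paired analysis was possible because the table holds 1 column per group, and for the same reason leaving out each replicate was not run. The H3K9me3 ChIP labelled set-25 had 0 counts in 16520 windows kept and the set-25 H3K9me2 ChIP, with nearly the same total, in 53; the cause of these zeros was not tested.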
